A study of Mus musculus with 9 samples.

Results

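Messenger RNA for 9 genes of the interleukin-6 (IL-6) family was followed in 9 lung libraries of male C57BL/6N mice. The genes were the cytokines Il6, Osm, Lif and Clcf1 and the receptor chains Il6ra, Il11ra1, Osmr, Lifr and Il6st. They were chosen by symbol, as the rows of the deposited mm10 transcript table that carry these names, and their 30 transcript rows were summed by gene. The whole table holds 129299 transcripts of 45777 genes. Of these, 18716 genes passed the filter on low counts and were tested, and all 9 IL-6 family genes were among them.

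The study asked whether the ethyl acetate fraction of Boehmeria nivea leaves (EA-BN) protects the lung in a mouse model of chronic obstructive pulmonary disease (COPD). There were 3 libraries for each of 3 groups. EA-BN-H mice received through the nose 0.5 mg/kg of lipopolysaccharide (LPS), a component of the bacterial wall, with 12.5 mg/kg of cigarette smoke condensate (CSC) on days 1, 6 and 13, and swallowed 200 mg/kg of EA-BN in 2% DMSO each day up to day 14. COPD mice had the same LPS and CSC with the 2% DMSO vehicle alone, and normal control (NC) mice had phosphate-buffered saline in the nose and the same vehicle. All lungs were removed on day 15, shortly after the last instillation, so the model is a repeated short exposure and not long-term smoking. The age of the mice is not given in the labels.

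The cytokines of this family share a signalling chain, gp130, which Il6st encodes. IL-6 first binds its own receptor chain, the product of Il6ra, and interleukin-11 binds that of Il11ra1, and each pair then engages gp130. Oncostatin M, the product of Osm, joins gp130 to the chain encoded by Osmr, and leukaemia inhibitory factor (Lif) joins it to the chain encoded by Lifr. Cardiotrophin-like cytokine factor 1 (Clcf1) acts through the ciliary neurotrophic factor receptor together with gp130 and the Lifr chain. Activated gp130 passes its signal through JAK kinases to STAT3, which turns on acute phase genes and its own inhibitor Socs3. In the lung, IL-6 and oncostatin M are known as products of macrophages and neutrophils in bacterial and smoke-related inflammation, while the Osmr and Lifr chains are found mainly on structural cells.

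The family lies in clusters on some chromosomes. Osm is at chr11:4236785-4241026 on the plus strand of mm10, and Lif follows on the same strand at chr11:4257568-4272514, with 16.5 kb between them. Osmr, at chr15:6813568-6874968 on the minus strand, is separated by 216 kb from Lifr, at chr15:7090610-7197489 on the plus strand. The other members stand alone, with Il6 at chr5:30013114-30019975, Il6ra at chr3:89869324-89913196, Il6st at chr13:112464070-112506860, Il11ra1 at chr4:41760443-41769473 and Clcf1 at chr19:4214238-4223505. An antisense gene, Gm42809, overlaps Il6ra, Ccl27a on the minus strand overlaps Il11ra1, and AC109138.7 and Gm26115 overlap Clcf1. Whether reads were counted by strand is not given in the sources used here, so reads of these neighbours could not be told apart from those of the 3 members. Reads of Il11ra1 may also be shared with its near-identical copy Il11ra2.

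The 250 bases before the start site are shown for the 2 inducible cytokine genes in which a searched motif was found there, Il6 and Lif. They come from RefSeq on GRCm38.p6, run 5′ to 3′ along the gene, and have the matched motifs in capitals.
Il6, chr5:30012864-30013113, plus strand: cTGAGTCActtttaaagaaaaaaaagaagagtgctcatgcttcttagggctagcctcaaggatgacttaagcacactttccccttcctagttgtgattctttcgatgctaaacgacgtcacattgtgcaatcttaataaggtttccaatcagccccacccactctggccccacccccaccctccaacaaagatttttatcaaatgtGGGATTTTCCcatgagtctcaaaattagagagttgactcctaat
Lif, chr11:4257318-4257567, plus strand: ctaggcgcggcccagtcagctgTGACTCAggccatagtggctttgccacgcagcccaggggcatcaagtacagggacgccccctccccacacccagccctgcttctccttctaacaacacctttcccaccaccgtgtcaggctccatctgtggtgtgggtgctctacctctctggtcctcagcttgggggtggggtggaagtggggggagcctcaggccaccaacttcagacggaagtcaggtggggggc

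In the Il6 window the NF-kappaB motif, matched as GGGATTTTCC in a search of both strands with any base allowed after GGGA, lies 44 to 35 bases before the start. The AP-1 motif, searched as TGANTCA on both strands, lies 249 to 243 bases before the start of Il6 and 228 to 222 bases before that of Lif, with no overlap between the motifs. Windows from 250 bases before to 50 bases after the start were given for 7 of the 9 genes, as 9 windows. The NF-kappaB motif was found in 1 of them, against 0.411% of all 32851 windows of 300 bases, and the AP-1 motif in 3 of them, the third being Osmr just after its start, against 7.81% of all windows. The STAT motif TTCNNNGAA was in 0 of the 9 windows and in 8.30% of all windows. These are matches of letters in short windows and not measured binding sites. The Lif window lies before the start of transcript variant 1, which held 13 counts in NC replicate 3 and 0 in every other library. The remaining counts of Lif were on transcript rows that start at chr11:4264277 or later.

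The libraries held 25232402 to 42156219 counts each, of which 7641 to 19928 fell on the 9 genes. Nuclear protein-coding genes took 40.6%, 53.1% and 26.1% of the counts in EA-BN-H replicates 1, 2 and 3, against 50.2 to 59.4% in COPD and 49.6 to 51.2% in NC. 7SL RNA took 51.0%, 38.2% and 63.5% in the 3 EA-BN-H libraries and 32.5 to 41.0% in the other libraries. Levels are therefore given in CPM, counts relative to a library size scaled by the trimmed mean of M-values (TMM), which compare libraries but not genes. NC replicate 1 stood apart in tissue markers. The summed level of 8 endothelial markers was 460 CPM there and 1311 and 1462 CPM in the other NC libraries, and that of 6 club and ciliated cell markers was 26918 CPM against 10568 and 14797 CPM. Markers of lung tissue were present in every library, with alveolar type 2 cell markers at 2794 to 5409 CPM in sum. Whether libraries came from separate mice is not stated beyond their replicate numbers, so p-values measure the spread between these libraries.

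Il6 and Osm were nearly absent from NC lungs and present at low levels in all 6 exposed lungs, with a wide spread inside both exposed groups. No other member differed in this way. At the adjusted threshold of the edgeR test none of the 9 genes was called in any comparison, and none differed between EA-BN-H and COPD at an unadjusted p under 0.05 either. In a list of STAT3 and acute phase genes, Saa3, Lcn2 and Lrg1 passed the adjusted threshold as higher in both exposed groups than in NC. These calls were lost in both comparisons when any NC library was left out, and the list is not specific for gp130. The feedback inhibitor Socs3 was above NC in each exposed library without passing the adjusted threshold. Among the receptor chains, Lifr had both its lowest and its highest library within NC, Il11ra1 varied about as widely there as over all libraries, and Osmr was high in EA-BN-H replicate 2.

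**Figure D1:**
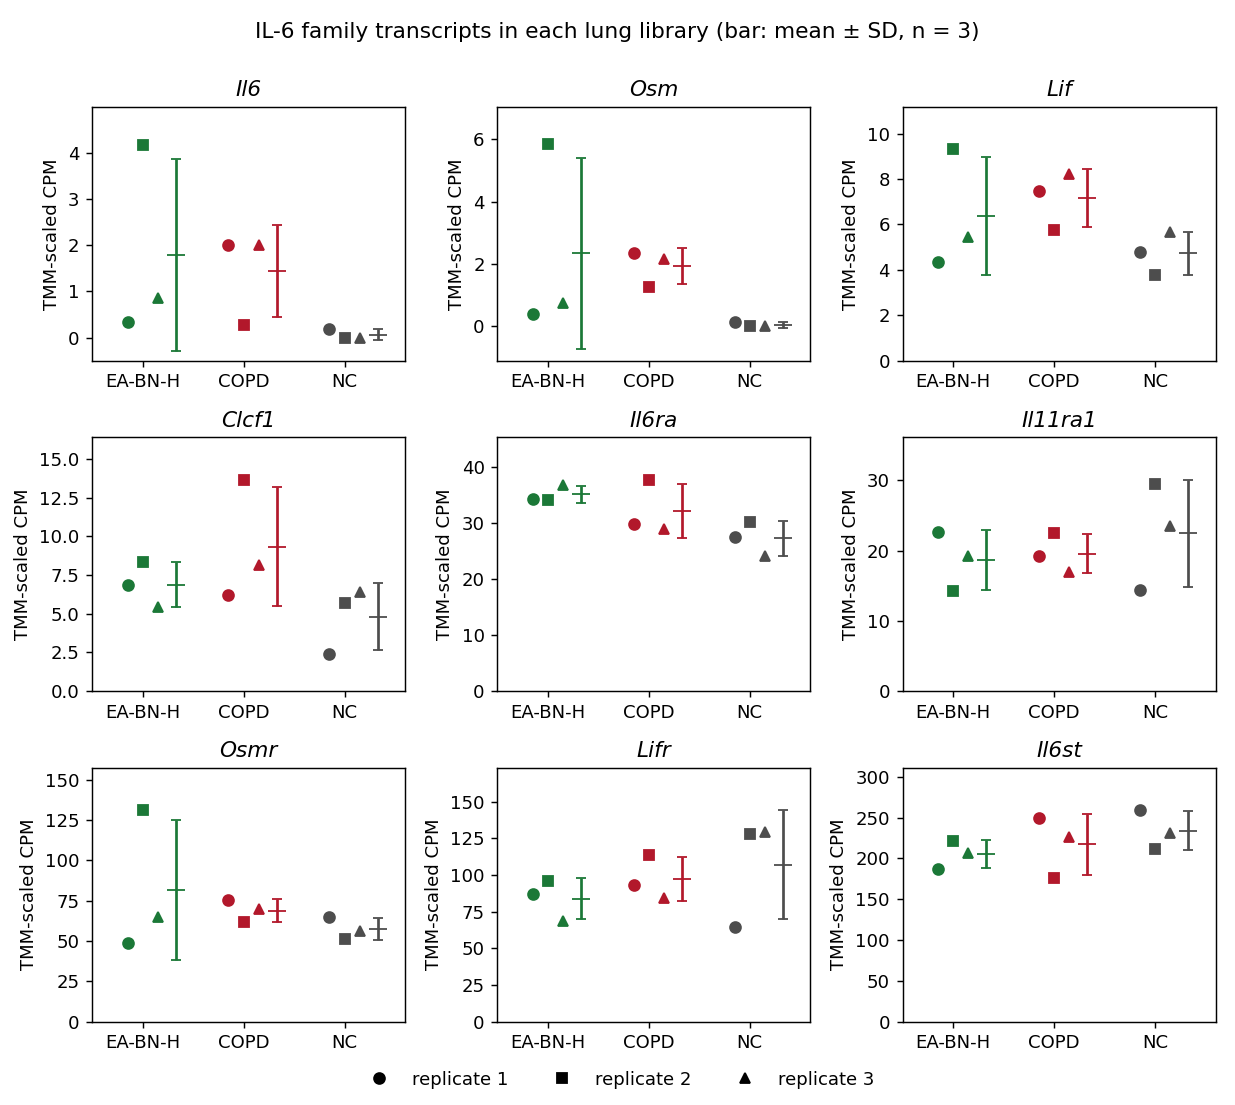
TMM-scaled CPM of each gene (vertical axis, own scale per panel) in the 9 libraries, with EA-BN-H left of COPD and NC, symbols for replicates and a bar for the mean ± SD of 3 libraries. All 6 exposed libraries lie above the 3 NC libraries for Il6 and Osm, and EA-BN-H replicate 2 is the highest library for Il6, Osm, Lif and Osmr.

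Il6 is induced by bacterial products and by other cytokines in macrophages and structural cells. It had 0.337, 4.17 and 0.856 CPM in the EA-BN-H libraries, 2.01, 0.283 and 2.00 CPM in the COPD libraries, and 0.197, 0 and 0 CPM in the NC libraries. In counts these were 9, 140 and 16 in EA-BN-H, 70, 8 and 70 in COPD and 9, 0 and 0 in NC. Each exposed library was above each NC library, but the lowest COPD library, replicate 2, was only slightly above NC replicate 1. The exact 95% Poisson interval of its 8 counts ran from 3.45 to 15.8 counts. That of the 9 counts in NC replicate 1 ran from 4.12 to 17.1 counts, so those 2 libraries could not be told apart at this depth. EA-BN-H replicate 1 also had 9 counts, with the same interval, and could not be told apart from NC replicate 1 either. For a count of 0 the limit was set at 3 counts, a one-sided bound where the two-sided interval reaches 3.69 counts, and this is 0.0910 CPM in NC replicate 2 and 0.107 CPM in NC replicate 3. These intervals and limits cover counting error only.

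The mean of Il6 was 1.79 ± 2.08 CPM in EA-BN-H, 1.43 ± 0.997 CPM in COPD and 0.0658 ± 0.114 CPM in NC (SD, n = 3 each). The log2 fold change was 4.23 (SE 1.49) for COPD against NC, with an unadjusted p of 0.0172 and an adjusted p of 0.201 by edgeR. For EA-BN-H against NC it was 4.55 (SE 1.51), with an adjusted p of 0.181. The difference from NC did not pass the adjusted threshold, and its size depended on the estimate. For COPD against NC it was 1.01 with shrunken DESeq2 fold changes and 0.81 on the log2(TPM + 1) scale, and by the same estimates 1.15 and 0.67 for EA-BN-H against NC. Against COPD, EA-BN-H had a log2 fold change of 0.32, with an interval of 2 standard errors either side from -2.19 to 2.83, wide enough to hold a marked rise or a marked fall. Without EA-BN-H replicate 2 it was -1.27.

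Osm encodes oncostatin M, made mainly by myeloid cells. Its libraries had 0.412, 5.86 and 0.749 CPM in EA-BN-H, 2.36, 1.27 and 2.18 CPM in COPD and 0.154, 0 and 0 CPM in NC. The corresponding counts were 11, 197 and 14 in EA-BN-H, 82, 36 and 76 in COPD and 7, 0 and 0 in NC. Replicate 2 was the lowest COPD library, as for Il6, while in EA-BN-H one library lay above all COPD libraries and the other two lay below all of them. EA-BN-H replicate 2 was 10.1 times the mean of the other EA-BN-H libraries for Osm and 6.98 times for Il6.

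Osm averaged 2.34 ± 3.05 CPM in EA-BN-H, 1.94 ± 0.582 CPM in COPD and 0.0512 ± 0.0887 CPM in NC (SD, n = 3 each). For COPD against NC the log2 fold change was 4.97 (SE 1.37), with an unadjusted p of 0.0046 and an adjusted p of 0.105 by edgeR. For EA-BN-H against NC it was 5.25 (SE 1.38), with an adjusted p of 0.0993. With shrunken DESeq2 fold changes and on the log2(TPM + 1) scale these sizes were 1.35 and 0.75 for COPD, and 1.49 and 0.58 for EA-BN-H. Against COPD, EA-BN-H differed by 0.28 on the log2 scale, with an interval from -1.91 to 2.47, and without EA-BN-H replicate 2 by -1.74. With NC replicate 1 left out, both cytokines were at 0 in the remaining NC libraries. The adjusted p for COPD against NC was then 0.120 for Osm and 0.148 for Il6, and a fitted fold change against 0 counts is not a bound.

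The calls for these 2 cytokines rested on the test. DESeq2 on the same counts gave an adjusted p of 0.0023 for Osm and 0.0296 for Il6 in COPD against NC, and 0.0012 for Osm and 0.0173 for Il6 in EA-BN-H against NC. It called 5.83% of all tested genes higher in COPD than in NC and 5.34% higher in EA-BN-H against NC. By edgeR at an adjusted p under 0.05 the shares were 1.53% and 1.04%, and 0 of the 9 genes. At the unadjusted p under 0.05 with a log2 fold change of at least 1, edgeR counted 2 of the 9 genes, Il6 and Osm, as higher in COPD than in NC, where 7.12% of all tested genes were, and the same 2 genes as higher in EA-BN-H against NC, where 6.66% were. Both comparisons share the NC libraries. All 6 exposed libraries lay above all 3 NC libraries for 2 of the 9 genes and for 7.9% of all tested genes.

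Lif, a cytokine of epithelial and stromal cells that is raised in lung infection, had 4.35, 9.31 and 5.46 CPM in EA-BN-H, 7.48, 5.76 and 8.24 CPM in COPD and 4.81, 3.76 and 5.65 CPM in NC. Every COPD library was above every NC library, though the lowest COPD value exceeded the highest NC value by little, and EA-BN-H overlapped both groups. The log2 fold change was 0.60 (SE 0.34) for COPD against NC with an adjusted p of 0.442 by edgeR, and 0.43 (SE 0.34) for EA-BN-H against NC with an adjusted p of 0.651. Between EA-BN-H and COPD it was -0.17, with an interval from -0.83 to 0.50. With Il6 and Osm, Lif made 3 of the 9 genes that did not overlap between COPD and NC in the higher direction, which held for 14.3% of all tested genes.

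Clcf1, whose product is known for its effects on B cells and neurons, had 6.86, 8.33 and 5.46 CPM in EA-BN-H, 6.22, 13.7 and 8.16 CPM in COPD and 2.37, 5.67 and 6.40 CPM in NC. The highest value was in COPD replicate 2, the library in which Il6 and Osm were lowest within COPD, and the lowest was in NC replicate 1. The log2 fold change for COPD against NC was 0.96 (SE 0.42), with an unadjusted p of 0.0445 and an adjusted p of 0.308 by edgeR, and the groups overlapped. It was 0.58 without COPD replicate 2 and 0.63 without NC replicate 1. For EA-BN-H against COPD it was -0.44, with an interval from -1.27 to 0.39. Clcf1 was the third of 3 members with an unadjusted p under 0.05 in COPD against NC, all higher, where 10% of all tested genes were higher at that threshold.

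Il6st, the shared gp130 chain, had 187, 222 and 207 CPM in EA-BN-H, 249, 176 and 226 CPM in COPD and 259, 212 and 231 CPM in NC. The 3 groups overlapped, and the log2 fold changes were -0.19 for EA-BN-H against NC, -0.11 for COPD against NC and -0.08 for EA-BN-H against COPD. The interval of the last ran from -0.50 to 0.34. Il6st had a single transcript row in the table.

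Il6ra, the IL-6 binding chain of hepatocytes and leukocytes, had 34.4, 34.2 and 36.9 CPM in EA-BN-H, 29.8, 37.7 and 29.0 CPM in COPD and 27.4, 30.2 and 24.1 CPM in NC. The EA-BN-H libraries lay close together and all above NC, while COPD overlapped both. The log2 fold change for EA-BN-H against NC was 0.37 (SE 0.18), with an unadjusted p of 0.0687 and an adjusted p of 0.396 by edgeR, and the sign turned with the scaling, since it was -0.01 with library totals. With Il6 and Osm, Il6ra was 1 of 3 members that did not overlap between EA-BN-H and NC in the higher direction, which held for 11.3% of all tested genes. None of the 9 genes separated EA-BN-H from COPD, where 6.33% of all tested genes did in either direction.

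Osmr, the oncostatin M chain, is itself raised by oncostatin M in many structural cells. It had 48.7, 131 and 65.1 CPM in EA-BN-H, 75.2, 61.5 and 69.8 CPM in COPD and 64.6, 51.1 and 56.4 CPM in NC. One library, EA-BN-H replicate 2, stood well above the other libraries, at 2.30 times the mean of EA-BN-H replicates 1 and 3, and replicate 1 was the lowest of all. The log2 fold change was 0.51 (SE 0.32) for EA-BN-H against NC with an adjusted p of 0.545 by edgeR, and -0.01 without EA-BN-H replicate 2. For COPD against NC it was 0.26 (SE 0.32).

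Lifr, the leukaemia inhibitory factor chain, had 87.3, 95.8 and 68.7 CPM in EA-BN-H, 93.5, 114 and 84.4 CPM in COPD and 64.2, 128 and 129 CPM in NC. The NC group held both the lowest and the highest library, the lowest being replicate 1, where endothelial markers were also lowest among NC. Their part in the result was not tested. Lifr had a log2 fold change of -0.35 (SE 0.28) for EA-BN-H against NC and -0.14 (SE 0.28) for COPD against NC. Il11ra1, the interleukin-11 chain of fibroblasts and epithelium, had 22.6, 14.2 and 19.2 CPM in EA-BN-H, 19.2, 22.5 and 17.0 CPM in COPD and 14.3, 29.5 and 23.5 CPM in NC, again with NC replicate 1 lowest in its group. Its log2 fold changes were between -0.27 and -0.07 in the 3 comparisons.

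**Figure D2:**
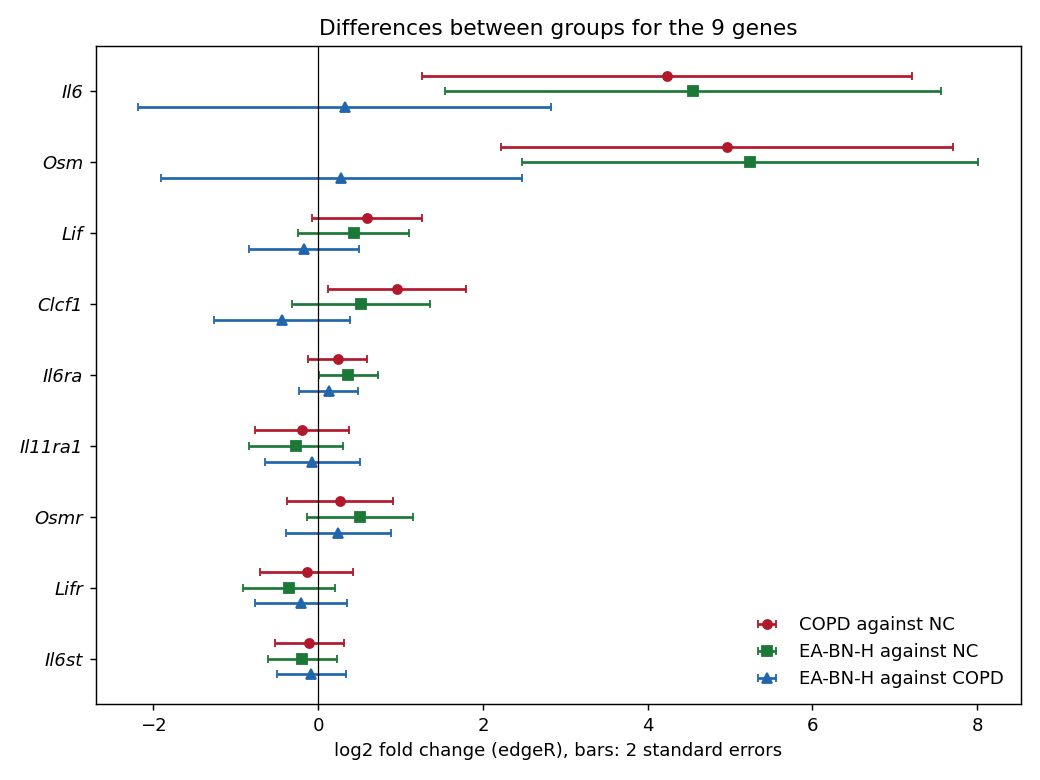
Log2 fold change (horizontal axis) of the 9 genes by edgeR for COPD against NC (circles), EA-BN-H against NC (squares) and EA-BN-H against COPD (triangles), with bars of 2 standard errors either side. Il6 and Osm lie between 4.23 and 5.25 in both comparisons with NC, and all 9 intervals of EA-BN-H against COPD include 0.

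Taking the 9 genes as a group, the median log2 fold change was 0.26 for COPD against NC and 0.43 for EA-BN-H against NC, where the medians over all tested genes were -0.02 and 0.00052. With library totals, FPKM or TPM in place of TMM the median of all genes for EA-BN-H against NC moved to between -0.59 and -0.34, and the values of Il6ra, Osmr, Lif and Clcf1 fell to or below 0 in some of these settings, but relative to that median 0 of 36 values of the 9 genes changed sign. It was -0.07 for EA-BN-H against COPD, where the median over all genes was 0. In that comparison edgeR called 0% of all tested genes at the adjusted threshold, 296 genes, or 1.58%, had an unadjusted p under 0.05, and DESeq2 called 3 genes, or 0.016%. None of the 9 genes was among those of either tool. The intervals of EA-BN-H against COPD for the remaining receptor chains ran from -0.23 to 0.49 for Il6ra, from -0.39 to 0.89 for Osmr, from -0.77 to 0.35 for Lifr and from -0.64 to 0.50 for Il11ra1, so a difference of the size of these bounds cannot be told from none.

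Levels can be compared between genes on the TPM scale, which divides by transcript length. Il6st was the highest in each group, at 17.0 ± 8.68 TPM in EA-BN-H, 28.5 ± 6.66 TPM in COPD and 29.2 ± 4.42 TPM in NC (SD, n = 3 each). In EA-BN-H its range overlapped that of Osmr. In EA-BN-H, Il6st had 15.3, 26.4 and 9.35 TPM, lowest in replicates 1 and 3, where 7SL RNA took the largest shares of the counts. The part of 7SL RNA in these values was not tested. Below Il6st came Osmr, Il11ra1, Lifr and Il6ra, with means of 4.49 to 10.1 TPM over the groups, and neighbours in this order overlapped in each group, apart from Il6ra in NC, which was below Osmr in every library. Clcf1 had means of 1.70, 3.55 and 1.69 TPM in EA-BN-H, COPD and NC, and Lif had 0.714, 1.15 and 0.712 TPM. In NC, Il6 at 0.0405 ± 0.0702 TPM and Osm at 0.0187 ± 0.0324 TPM were far below Lif without overlap, while in EA-BN-H and COPD the levels of Lif, Il6 and Osm overlapped.

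**Figure D3:**
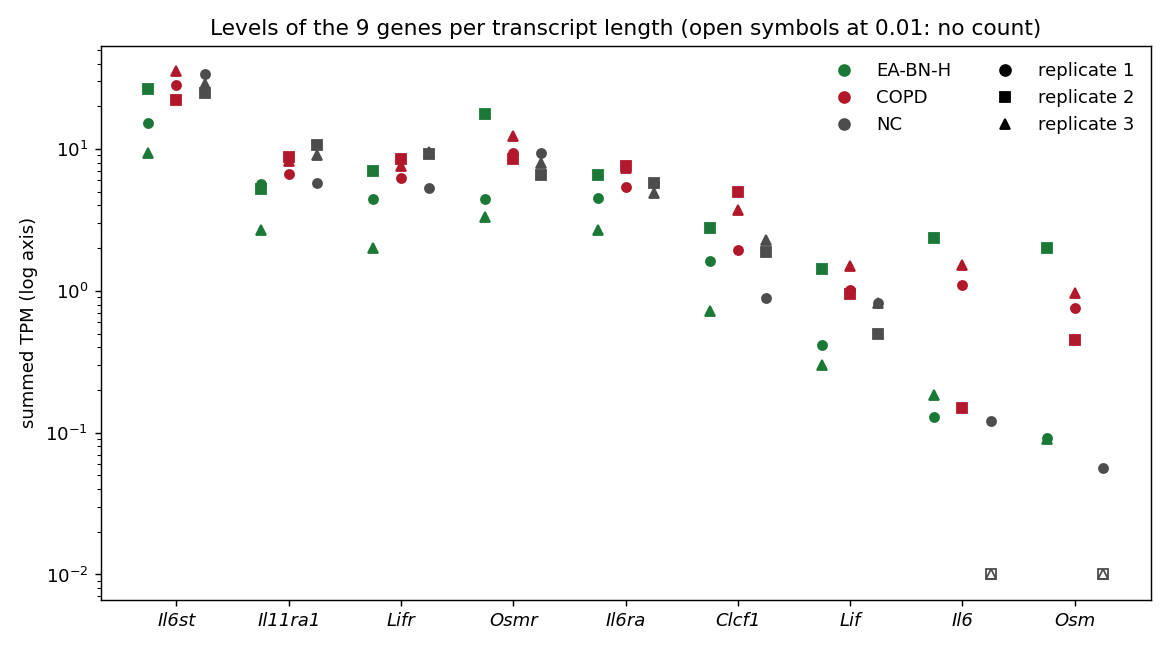
Summed TPM of each gene (vertical log axis) in each library, ordered by the NC mean, with EA-BN-H left of COPD and NC within each gene and open symbols at 0.01 for libraries with no count. The mean of each receptor chain is above that of each cytokine within a group. In EA-BN-H, however, the range of Clcf1 overlaps those of Lifr, Il6ra and Il11ra1, and the range of Il6 overlaps that of Lifr. Il6 and Osm span the widest range, with 2 NC libraries at 0 for each.

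Ratios of receptor chains inside a library do not depend on how libraries are scaled. The ratio of Osmr to Il6st in TPM was 0.292, 0.663 and 0.355 in EA-BN-H, 0.335, 0.387 and 0.347 in COPD and 0.278, 0.262 and 0.275 in NC. All 6 exposed libraries were above the 3 NC libraries, with EA-BN-H replicate 1 only just above. The ratio of counts, which leaves out transcript length, gave 0.260, 0.591 and 0.315 in EA-BN-H, 0.302, 0.349 and 0.308 in COPD and 0.249, 0.241 and 0.244 in NC. By counts too, all 6 exposed libraries were above the 3 NC libraries. EA-BN-H and COPD overlapped by both measures.

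For Il6ra over Il6st the TPM ratio was 0.296, 0.248 and 0.288 in EA-BN-H, 0.193, 0.346 and 0.207 in COPD and 0.171, 0.230 and 0.168 in NC. EA-BN-H was above NC in all 3 libraries and COPD overlapped both. Osmr over Lifr ranged from 1.01 to 2.49 in EA-BN-H, from 1.01 to 1.61 in COPD and from 0.710 to 1.76 in NC. The groups overlapped for that ratio, as they did for Lifr over Il6st. The ratios were not tested and are given as a description. How often other pairs of genes separate the exposed libraries from NC was not counted. Between 2 groups of 3 libraries the smallest two-sided p of an exact permutation test is 0.10.

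**Figure D4:**
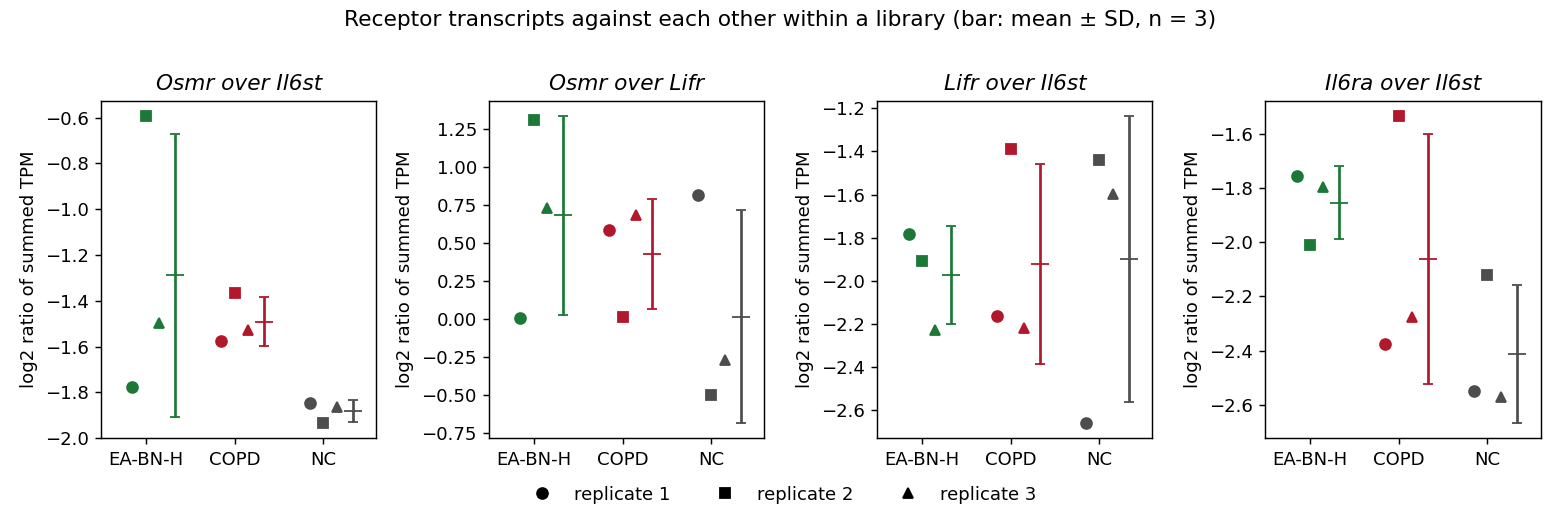
Log2 ratio of summed TPM (vertical axis) for 4 pairs of receptor genes within each library, with EA-BN-H left of COPD and NC and a bar for the mean ± SD of 3 libraries. Only for Osmr over Il6st do all 6 exposed libraries lie above the 3 NC libraries, the NC values being within -1.93 and -1.85.

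The transcript rows behind each gene differed between libraries. The counts of Osm were all on the curated RefSeq transcript in EA-BN-H replicate 2 and in the 3 COPD libraries, and all on a predicted transcript of nearly the same length in EA-BN-H replicates 1 and 3 and NC replicate 1. These 3 were the libraries with 7 to 14 counts. For Il6, a second transcript row held 45.7% and 47.1% of the counts in COPD replicates 1 and 3 and no counts in the other libraries. Lifr was carried by one long curated transcript at 91.2 to 97.9% in 8 libraries and at 16.2% in COPD replicate 2, where a predicted transcript held 81.5%. For Osmr the main row held 5.82% in NC replicate 2, where a predicted transcript held 87.1%. In the other libraries its share varied from 39.5 to 96.1%. Rows of one gene share most of their reads, so these shares describe how the counts were assigned.

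The rest of the IL-6 pathway was described with lists of genes grouped by known function. The lists were chosen with earlier results of these data known. Their counts are therefore a description, and the shares over all tested genes beside them are not a test. Among 4 tested other ligands of the family, Ebi3, a subunit of interleukin-27, was counted as higher in COPD than in NC by the unadjusted p under 0.05 with a log2 fold change of at least 1, where 7.12% of all tested genes were. It had 1.91, 3.21 and 1.12 CPM in EA-BN-H, 1.58, 0.919 and 2.26 CPM in COPD and 0.263, 0 and 0.358 CPM in NC. By the same thresholds Il27ra, a receptor of interleukin-27, was higher in COPD than in NC as 1 of 5 other receptors, with a log2 fold change of 1.17 and an adjusted p of 0.224 by edgeR. The count for other ligands was 0 without COPD replicate 3 and 2 without EA-BN-H replicate 1 or NC replicate 2, and that for other receptors was 0 without COPD replicate 3 or NC replicate 1. Il11, the ligand of Il11ra1, stayed at 1.14 CPM or lower in every library. Ctf2, Cntf and Il31 were too low to be tested.

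Soluble IL-6 receptor is shed by the protease ADAM17, which needs the iRhom2 protein encoded by Rhbdf2. Rhbdf2 had 41.6, 73.6 and 40.9 CPM in EA-BN-H, 53.0, 46.6 and 47.0 CPM in COPD and 22.8, 34.0 and 32.7 CPM in NC. Every exposed library was above every NC library, as was the case for 7.9% of all tested genes. The log2 fold changes were 0.81 (SE 0.26) for EA-BN-H against NC and 0.71 (SE 0.26) for COPD against NC. Their adjusted p were 0.175 and 0.22 by edgeR. Adam17 had a log2 fold change of 0.91 (SE 0.36) for COPD against NC and of 0.50 (SE 0.35) for EA-BN-H against NC. Its adjusted p were 0.255 and 0.603 by edgeR. In the same order, Adam10 had log2 fold changes of 0.30 (SE 0.31) and 0.09 (SE 0.31). Rhbdf1 had 0.12 (SE 0.27) and 0.52 (SE 0.27). None of the 4 genes of this list reached a log2 fold change of 1 with an unadjusted p under 0.05.

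Stat3, the main transcription factor of the pathway, falls outside the rule for named genes and was added after its values were seen, as the target of gp130. It had 134, 224 and 133 CPM in EA-BN-H, 170, 128 and 176 CPM in COPD and 128, 113 and 99.996 CPM in NC. EA-BN-H replicate 2 was again the highest library, and COPD replicate 2 and NC replicate 1 were level with each other, so COPD and NC overlapped. The log2 fold change was 0.47 (SE 0.26) for COPD against NC, with an adjusted p of 0.415 by edgeR, and 0.53 (SE 0.26) for EA-BN-H against NC, with an adjusted p of 0.388.

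Of 8 feedback inhibitors, 3 were counted as higher in COPD than in NC and 3 in EA-BN-H against NC at the unadjusted threshold with a log2 fold change of at least 1, where 7.12% and 6.66% of all tested genes were higher. Socs3, which binds gp130 and ends its signal, had 48.8, 184 and 42.2 CPM in EA-BN-H, 72.5, 59.1 and 85.3 CPM in COPD and 21.3, 21.3 and 19.8 CPM in NC. Every exposed library was above every NC library, as was the case for 7.9% of all tested genes. EA-BN-H replicate 2 was 4.04 times the mean of the other EA-BN-H libraries. Against NC the log2 fold change was 1.80 (SE 0.49) for COPD, with an adjusted p of 0.102 by edgeR, and 2.14 (SE 0.50) for EA-BN-H, with an adjusted p of 0.0692. Socs1, a JAK inhibitor induced by interferons, had log2 fold changes of 2.63 and Ptpn6, a phosphatase of blood cells, of 2.00 for COPD against NC, neither past the adjusted threshold.

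Among 25 tested genes of STAT3 activation and the acute phase, 13 were counted as higher and 1 as lower in COPD than in NC, and 12 as higher and 1 as lower in EA-BN-H against NC, by the unadjusted threshold with a log2 fold change of at least 1. Of all tested genes, 7.12% and 6.66% were higher by these thresholds. In both directions together the count of 14 for COPD against NC was 8 without COPD replicate 1 and 9 without NC replicate 1, and the count of 13 for EA-BN-H against NC was 7 without EA-BN-H replicate 2. The median of the list was 1.16 for COPD against NC and 1.11 for EA-BN-H against NC. At the adjusted threshold 3 were higher in COPD than in NC, while EA-BN-H had 4 higher and 1 lower. Of all tested genes, 1.53% and 1.04% were higher at that threshold. Of the 211 genes called in EA-BN-H against NC, 194 were higher. Many of these genes also answer to NF-kappaB or to interferons, so the list is not specific for gp130.

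Saa3, an acute phase protein made in the inflamed lung, had 219, 1585 and 185 CPM in EA-BN-H, 633, 131 and 722 CPM in COPD and 1.95, 0 and 0 CPM in NC. Lcn2, a siderophore-binding protein of neutrophils and epithelium, had 124, 823 and 103 CPM in EA-BN-H, 357, 100 and 523 CPM in COPD and 9.44, 9.49 and 4.65 CPM in NC. Both were high in the same libraries as Il6 and Osm, with EA-BN-H replicate 2 first and COPD replicate 2 lowest in its group. For COPD against NC the log2 fold change was 9.45 (SE 1.72) for Saa3, 5.37 (SE 0.96) for Lcn2 and 2.89 (SE 0.46) for Lrg1, a secreted glycoprotein of the acute phase, with adjusted p of 0.0345, 0.0337 and 0.0267 by edgeR. For EA-BN-H against NC the 3 had log2 fold changes of 9.87, 5.47 and 2.69, each with an adjusted p of 0.0395.

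Fos, an immediate early gene, was the lower member of the list, at 17.8, 18.6 and 25.4 CPM in EA-BN-H, 22.7, 46.0 and 44.3 CPM in COPD and 131, 60.4 and 58.6 CPM in NC. Its log2 fold change was -2.02 (SE 0.38) for EA-BN-H against NC, with an adjusted p of 0.0444 by edgeR. The calls for Saa3, Lcn2 and Lrg1 in COPD against NC stood when COPD replicate 2 or any EA-BN-H library was left out, and were lost when COPD replicate 1, COPD replicate 3 or any NC library was left out, with adjusted p of at most 0.121 and log2 fold changes that kept their sign. For EA-BN-H against NC the calls of these 3 genes stood in 4 of the 9 fits that left out a library and that of Fos in 1 of 9, without EA-BN-H replicate 3, the highest adjusted p being 0.149. Under the other settings tried, EA-BN-H against NC was called in 7 of 11 for Saa3, 5 of 12 for Lcn2, 6 of 12 for Lrg1 and 6 of 12 for Fos, and COPD against NC in 8 of 11 for Saa3, 9 of 12 for Lcn2 and 10 of 12 for Lrg1.

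Most of the other inflammatory cytokines listed outside the family were high in the same libraries, though none passed the adjusted threshold. Of 10, 8 were counted as higher in COPD than in NC and 9 in EA-BN-H than in NC at the unadjusted threshold with a log2 fold change of at least 1, against 7.12% and 6.66% of all tested genes, and the list medians were 4.53 and 5.42. Il1b, an inflammasome product and an inducer of Il6, had 12.4, 198 and 12.4 CPM in EA-BN-H, 52.0, 11.1 and 50.2 CPM in COPD and 1.01, 2.94 and 2.22 CPM in NC. Tnf had 6.15, 49.9 and 4.76 CPM in EA-BN-H, 17.4, 2.86 and 12.4 CPM in COPD and 0, 0 and 0.608 CPM in NC. In both genes EA-BN-H replicate 2 was the highest library and the other EA-BN-H libraries were below COPD replicates 1 and 3. Csf2 and Csf3, outside the rule for named genes, had replicate 2 as the highest COPD library. They had 1.27, 2.16 and 1.77 CPM and 0, 0.742 and 0.572 CPM in COPD. In EA-BN-H against COPD none of the pathway lists held a gene past the unadjusted threshold with a log2 fold change of at least 1, which 0.801% of all tested genes were.

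**Figure D5:**
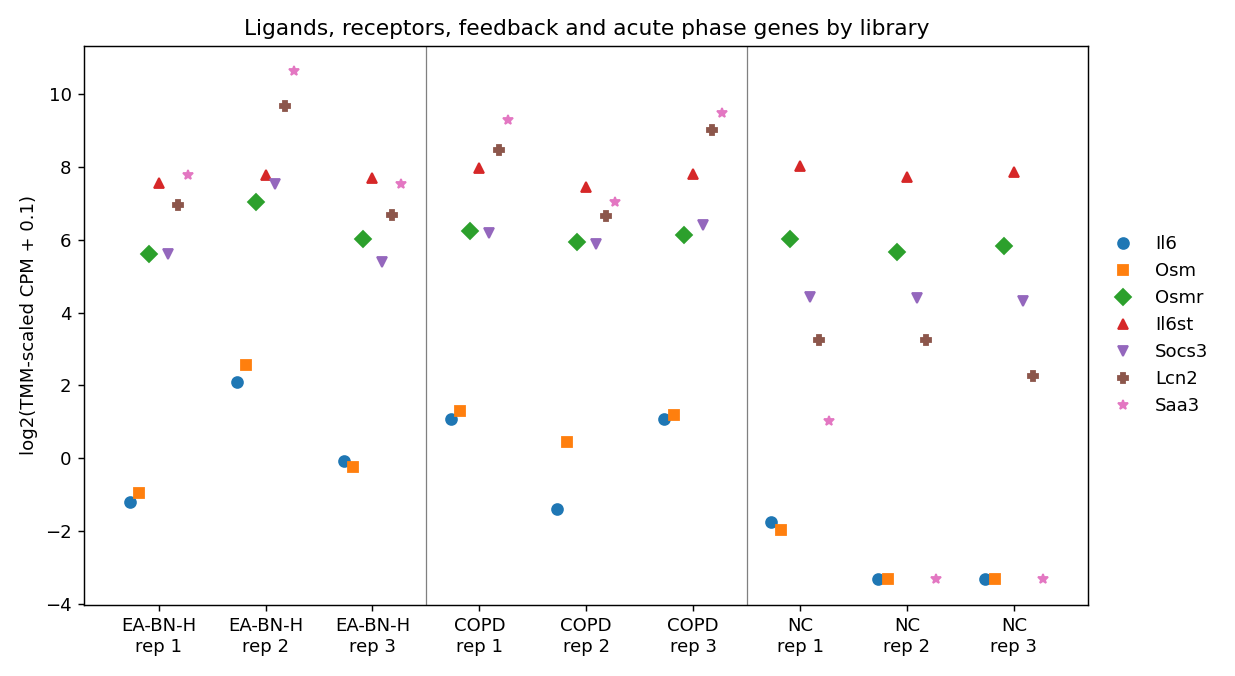
Log2 of TMM-scaled CPM plus 0.1 (vertical axis) of Il6, Osm, Osmr, Il6st, Socs3, Lcn2 and Saa3 in each of the 9 libraries, with EA-BN-H left of COPD and NC. Il6, Osm, Lcn2 and Saa3 are highest in EA-BN-H replicate 2 and low in NC, where points at the bottom are counts of 0, while Il6st is level across the libraries.

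EA-BN-H replicate 2 held the highest value of the 9 libraries for 4 of the 9 genes, Il6, Osm, Osmr and Lif, and for 18.2% of all tested genes. It was also the highest library for neutrophil markers, whose sum over 10 genes was 96.2, 361 and 104 CPM in EA-BN-H, 156, 138 and 302 CPM in COPD and 126, 36.3 and 28.2 CPM in NC. The sum of 10 markers of monocytes and interstitial macrophages was 481, 1044 and 330 CPM in EA-BN-H, 807, 403 and 838 CPM in COPD and 112, 141 and 138 CPM in NC. The monocyte and interstitial macrophage sum had replicate 2 as the highest EA-BN-H library and as the lowest COPD library, as Il6 and Osm did. It was higher in all 6 exposed libraries than in NC. The neutrophil sum had the same order of replicate 2, but much of it was Ltf, with 117 of the 126 CPM in NC replicate 1. Without Ltf, a choice made after its values were seen, the other 9 markers summed to 44.5, 263 and 26.6 CPM in EA-BN-H, 61.7, 77.8 and 101 CPM in COPD and 8.82, 20.0 and 20.0 CPM in NC. Replicate 2 was then still the highest EA-BN-H library but not the lowest COPD library, and all 6 exposed libraries were above NC. Ly6g, a defining neutrophil marker, was at 0 in every library but EA-BN-H replicate 2, where it had only 0.179 CPM. The limit of 3 counts is 0.0893 CPM in that library. Other low neutrophil markers did not all follow Ly6g. Camp had 0.655 CPM in EA-BN-H replicate 2 and 0.172 CPM in COPD replicate 3. Ngp was at 0 in EA-BN-H replicate 2 and had 0.144 and 0.143 CPM in COPD replicates 1 and 3. Values this low do not show which libraries held neutrophils. Markers of T and natural killer cells also had replicate 2 as the highest EA-BN-H and the lowest COPD library. They summed to 16.5, 70.9 and 27.7 CPM in EA-BN-H and 57.0, 27.6 and 65.8 CPM in COPD. Alveolar macrophage markers were instead highest in replicate 1 within EA-BN-H, at 136, 107 and 56.5 CPM. All markers of these lists were found and none was at 0 in every library, and their part in the results was not tested. In bulk tissue, more cells of a type and more RNA per cell cannot be told apart.

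The genes whose pattern over the 9 libraries was nearest to that of a member were sought by the root mean square (RMS) difference of log2 CPM, each gene centred on its own mean. Nearest to Il6 were AW112010, an interferon-induced transcript, at 0.46, Tgtp1, an interferon-inducible GTPase, at 0.56, and Retnla, a secreted product of activated macrophages and epithelium, at 0.60, where the median over 13588 genes was 2.06. Nearest to Osm were Nos2, the inducible nitric oxide synthase, at 0.56, Tgtp1 at 0.56 and Il12b, a subunit of interleukin-12 and interleukin-23, at 0.58, where the median was 2.21. Nearest to Clcf1 were Acap1 at 0.17, Camkk2 at 0.18 and Elmo1 at 0.19, with a median of 0.73. Il6 had other neighbours than Clcf1, and shared Tgtp1 with Osm.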

How the data were processed

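RNA of mouse lungs was sequenced as paired reads in 9 libraries. By the labels the kit was a stranded one for total RNA with 101 bp reads, while the paper gives a TruSeq RNA kit and HTSeq. According to the submitters' processing notes, reads were trimmed with Trimmomatic 0.38, and HISAT2 2.1.0 on mm10, StringTie 2.1.3b and DESeq2 were also used. For each RefSeq transcript the authors deposited an estimated count, already a whole number and not normalized, and FPKM and TPM values, which the authors scaled by transcript length and library. Strand use in counting is not given in the sources used here.

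Estimated counts were summed by gene. Of 45777 genes, 18716 passed filterByExpr of edgeR. Libraries were scaled by TMM, and all 9 entered one quasi-likelihood fit (robust, common biological coefficient of variation 0.438) with Benjamini-Hochberg adjustment over all tested genes and a threshold of 0.05. Genes at an unadjusted p under 0.05 with a log2 fold change of at least 1 in the same fit were counted beside it. The paper set these thresholds on shrunken DESeq2 fold changes, which were run as an alternative. The software was edgeR 4.0.16, DESeq2 1.42.0 and limma 3.58.1 under R 4.3.3, and the fit was tested on simulated data. No 2 libraries held identical counts, and 0 sample columns were left out.

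The members and lists were chosen with earlier results of these data known. Named genes are the 9 members, up to 4 genes per list with the smallest p, and the 3 nearest in pattern to each member with an unadjusted p under 0.05 in COPD against NC, among genes of at least 50 counts on average. Other settings tried were DESeq2 (plain or shrunken fold changes), RLE factors, library totals, scaling on nuclear coding genes, other filters, a replicate block, only the groups compared, limma on TPM and FPKM, and leaving out each library. The list of JAK and STAT signalling genes is not reported here, apart from single genes.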

Additional observations from a re-analysis of the deposited data

How the results depend on the processing

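DESeq2 with plain or shrunken fold changes called 2 members, Il6 and Osm, in COPD against NC and 2 in EA-BN-H against NC. No other setting in which they were tested called a member, and for this difference the cause was not tested. Il6 and Osm could not be tested with at least 10 counts in every library, since NC libraries were at 0, and Il6 did not pass the filter against NC with only the groups compared. Over all genes, COPD against NC had 299 calls, and 1402 by DESeq2, 95 with library totals, 724 with only the groups compared, 3 with log2(TPM + 1) and 0 with the replicate block. EA-BN-H against NC had 211 calls, and 1295, 5, 0, 11 and 0 in the same settings, 11 with log2(TPM + 0.1) and 10 with log2(FPKM + 0.1). Leaving out a library gave 0 to 996 and 0 to 419 calls.

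The replicate numbers do not pair the libraries, whose residual correlations ran from -0.243 to 0.127 for the same number. With the replicate block no member was called, and Osm was -0.16 in EA-BN-H against COPD.

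Some log2 fold changes changed sign. In EA-BN-H against COPD, limma on log2(TPM + 0.1), log2(TPM + 1) and log2(FPKM + 0.1) gave -0.53, -0.14 and -0.32 for Il6, -0.62, -0.52 and -0.30 for Il6ra, -0.91, -0.17 and -0.80 for Osm, and -0.63, -0.53 and -0.30 for Osmr, and library totals gave -0.30 for Il6ra and -0.081 for Osmr. In EA-BN-H against NC the 3 limma settings gave -0.32, -0.26 and -0.036 for Il6ra and -0.29, -0.22 and -0.0021 for Osmr, both TPM settings gave -0.23 and -0.050 for Lif and -0.071 and -0.026 for Clcf1, and library totals gave -0.014 for Il6ra. These settings moved the median of all genes in EA-BN-H against COPD by -0.70 to -0.41. Relative to that median, 5 of 36 values changed sign there and 0 of 36 in EA-BN-H against NC.

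Leaving out a library gave ranges that cross 0. In COPD against NC they were -0.22 to 0.024 for Il6st, -0.40 to 0.015 for Lifr and -0.44 to 0.041 for Il11ra1. In EA-BN-H against COPD they were -1.27 to 0.81 for Il6, -1.74 to 0.78 for Osm, -0.28 to 0.51 for Osmr, -0.21 to 0.029 for Il6st, -0.55 to 0.049 for Lif and -0.23 to 0.097 for Il11ra1. For Osmr in EA-BN-H against NC it was -0.013 to 0.78. The low counts of Il6 and Osm, at 0 to 16 in 6 and 5 of the 9 libraries, limit what can be said of them.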
